A study of Mus musculus with 6 samples.

Results

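The stretch described here lies on mouse chromosome 4, over 1 Mb and up to 5 Mb downstream of the promoter of Wnt4, towards higher coordinates. Its members are all 10761 fragment ends listed in the deposited tables at chr4:137832109-141832108 (mm9), of 369081 listed ends on the chromosome. They were chosen by position alone, as the distance from the viewpoint end just before the Wnt4 gene, and no measured value entered the choice. The Wnt4 promoter was the viewpoint of a 4C-seq experiment (circularised chromosome conformation capture with sequencing). In this assay crosslinked chromatin is cut and ligated, and the DNA joined to a chosen fragment, the viewpoint, is amplified and sequenced. There were 6 libraries, 3 each from BC44 and HC11, which are established lines of mouse mammary epithelial cells. BC44 cells grew in RPMI medium with serum and insulin. HC11 cells grew in the same medium with EGF added at 10 ng/ml, so a difference between the lines and an effect of EGF cannot be told apart. The labels name no further treatment, genotype or time point. All cells were fixed with 2% formaldehyde for 10 min, and chromatin was cut with DpnII (GATC) and then NlaIII (CATG). Expression was not measured in these libraries, so the labelled cell type could not be checked against marker genes.

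Wnt4 encodes a secreted signalling protein that acts downstream of progesterone in the mammary gland and promotes side branching of the ducts. Promoters meet their enhancers mostly within topological domains, stretches of chromatin whose parts contact each other more often than they contact neighbouring domains. Contacts of a promoter become rarer with genomic distance, and beyond the domain a 4C library samples them as scattered fragment ends.

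Most captured ends of the flank were seen in a single library, so a few of the rare ends seen repeatedly are shown first. The rule for naming ends asked for reads in all 6 libraries and found none (0 of 10761). The ends below were therefore chosen after their values were seen. The first 3 had reads in 4 libraries, and the next 3 had reads in all 3 libraries of a single line and in no library of the other. Each sequence is the mm9 reference read 5′ to 3′ from the DpnII end to the nearest NlaIII site in the fragment, with both restriction sites in capitals. They lie at chr4:137886928-137886987 (minus strand, between genes, 4.8 kb from Pink1), chr4:138619325-138619449 (plus strand, an intron of Htr6), chr4:139171218-139171416 (plus strand, an intron of Iffo2), chr4:137849725-137849803 (minus strand, an exon of Kif17), chr4:138801240-138801412 (minus strand, an intron of Capzb) and chr4:140879962-140880008 (minus strand, an intron of Epha2).
near Pink1: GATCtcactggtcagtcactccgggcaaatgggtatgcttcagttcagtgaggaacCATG
Htr6 intron: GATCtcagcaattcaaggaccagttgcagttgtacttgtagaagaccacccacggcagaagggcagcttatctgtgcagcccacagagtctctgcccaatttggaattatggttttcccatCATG
Iffo2 intron: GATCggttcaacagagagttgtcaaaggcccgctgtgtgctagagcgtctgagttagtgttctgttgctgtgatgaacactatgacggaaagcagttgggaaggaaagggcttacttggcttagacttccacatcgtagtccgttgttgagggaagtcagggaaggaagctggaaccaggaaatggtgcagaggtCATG
Kif17 exon: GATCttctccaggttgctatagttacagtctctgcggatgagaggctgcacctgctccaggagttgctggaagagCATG
Capzb intron: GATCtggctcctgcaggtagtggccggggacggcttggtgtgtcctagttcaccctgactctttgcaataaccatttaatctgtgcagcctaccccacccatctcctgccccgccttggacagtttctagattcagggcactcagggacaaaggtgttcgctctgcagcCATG
Epha2 intron: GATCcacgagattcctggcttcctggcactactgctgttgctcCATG

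Values for a line are given in the order of replicates 1, 2 and 3 throughout. The end near Pink1, a mitochondrial kinase, had 424, 0 and 102 reads in BC44 and 601, 0 and 22 reads in HC11. The end in Htr6, a serotonin receptor, had 138, 0 and 22 reads in BC44 and 245, 0 and 336 reads in HC11. The end in Iffo2 had 48, 0 and 108 reads in BC44 and 163, 5 and 0 reads in HC11. Even these ends, seen in both lines, were missed by BC44 replicate 2 and by an HC11 library. The end in Kif17, a kinesin motor, had no read in BC44 and 437, 4 and 162 reads in HC11. The end in Capzb, the beta subunit of the actin capping protein, had no read in BC44 and 20, 6 and 157 reads in HC11. The end in Epha2, an ephrin receptor, had 204, 190 and 59 reads in BC44 and none in HC11. The last 3 were picked for their split between the lines, so the split is a description and has no test. The other ends with reads in 4 libraries lay between genes, 2.8 kb from Camk2n1 and 17.8 kb from Vwa5b1, and their sequence up to the NlaIII site is over 300 bases long.

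Of the listed ends of the flank, 5356 open a GATC site and 5405 close it. They were 54.0% of the 19918 possible ends there. Each had an NlaIII site within its fragment. The median fragment was 449 bp long and the median distance to the NlaIII site 120 bp. Protein-coding gene bodies (GENCODE M1, on the mm9 assembly) held 61.1% of the ends, and 16.3% lay within 5 kb of a protein-coding start. The flank overlaps 76 protein-coding genes, from Kif17 at its inner edge to Kazn at its outer edge.

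Total reads on chromosome 4 ranged from 825498 to 1401717 in BC44 and from 96690 to 1755373 in HC11, and reads more than 2 kb from the viewpoint from 93823 (HC11 replicate 2) to 962655. The replicate 1 libraries of both lines stood apart, with 40.5% and 44.3% of their reads at the viewpoint end, against 0.134% to 0.466% in the others. Some line comparisons whose direction changes without them are therefore also given without them. The labels do not say that the replicates are separate cultures, so p-values measure only the spread between these samples.

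The flank held reads in every library: 43592, 30737 and 39237 in BC44, with 45889, 5250 and 33153 in HC11. These came from few ends. An end is called captured here if it has at least 1 read, and 582, 351 and 320 ends were captured in BC44 and 385, 292 and 385 in HC11. The share of listed ends captured ran from 2.71% in HC11 replicate 2 (95% Wilson interval 2.42 to 3.04) to 5.41% in BC44 replicate 1 (4.997 to 5.85). The reads were not counted by molecule, so such intervals cover counting error only. The median captured end held 33, 28 and 54 reads in BC44 and 59, 8.5 and 30 in HC11, and only 18 to 48 ends per library rested on a single read.

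Captured shares rise with depth, so the shares below are those expected if each library had 93823 reads outside 2 kb, the depth of the shallowest (captured share at equal depth). Over the flank this share was 4.31%, 2.47% and 2.44% in BC44 and 2.98%, 2.71% and 2.93% in HC11. The HC11 libraries lay close together, within the span of the BC44 libraries. The BC44 mean was 3.07% ± 1.07 (SD, n = 3) and the HC11 mean 2.87% ± 0.142 (SD, n = 3), a difference of -0.195 percentage points for HC11 minus BC44 (two-sided exact permutation p = 1, adjusted p = 1 over 5 measures). The direction rested on BC44 replicate 1: without it the difference was 0.423 points, and with replicates 2 and 3 only it was 0.371 points.

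Capture fell steeply in the inner part of the flank and more slowly beyond it. The mean captured share over the 6 libraries at equal depth was 5.63% ± 1.27 (SD, n = 6) at 1 to 2 Mb, 2.72% ± 0.477 (SD, n = 6) at 2 to 3 Mb, 2.21% ± 0.659 (SD, n = 6) at 3 to 4 Mb and 1.40% ± 0.686 (SD, n = 6) at 4 to 5 Mb. Just inside the inner limit, in the first 250 kb, the share was 6.59%, and outside it, at 0.4 to 1 Mb, it was 14.4%. Just inside the outer limit it was 1.01%, and over the rest of the chromosome beyond 5 Mb downstream 0.731%. Reads followed the same course, and the stretch from 1 to 2 Mb held 41.9%, 41.6% and 45.1% of the flank's reads in BC44 and 44.2%, 51.6% and 47.7% in HC11.

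**Figure D1:**
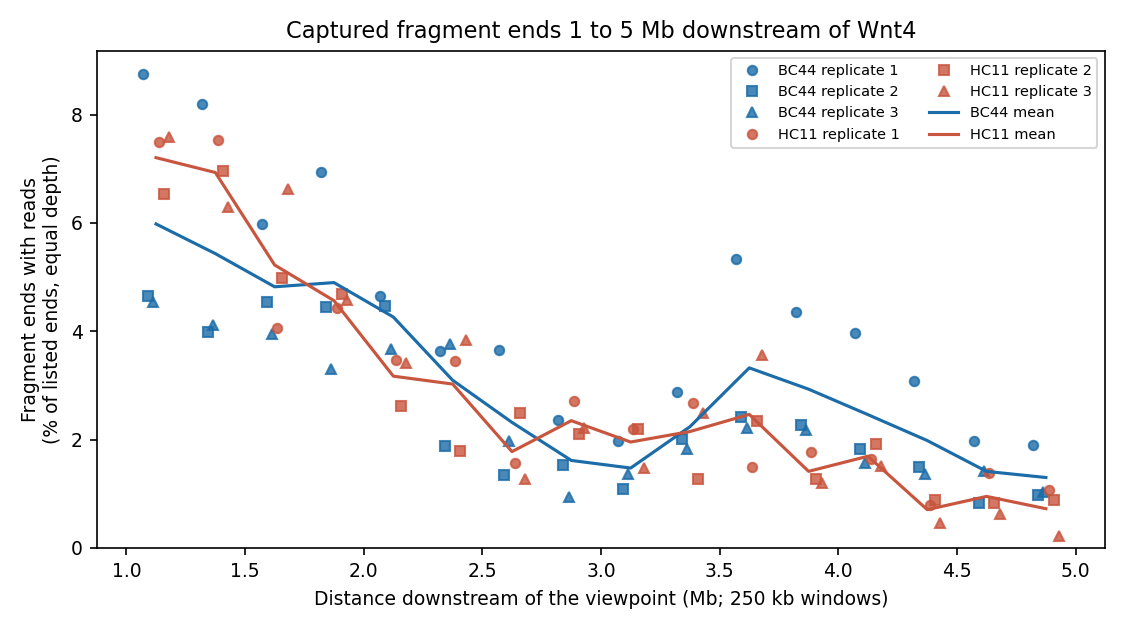
Captured fragment ends at equal depth (percent of listed ends) in 250 kb windows, plotted against distance downstream of the viewpoint in Mb. Points are libraries and lines are means of 3 libraries per cell line; capture falls from a mean of 6.59% in the first window to 1.01% in the last, with a secondary rise near 3.5 Mb in most libraries.

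The inner 4 windows of 250 kb had the highest captured shares. The innermost, at 1 to 1.25 Mb (chr4:137832109-138082108), averaged 6.59% ± 1.70 (SD, n = 6). It holds the end of Kif17, Pink1, the mitochondrial ubiquitin ligase gene Mul1, Ddost, a subunit of the oligosaccharyltransferase that glycosylates secreted proteins, and Cda, a cytidine deaminase of pyrimidine salvage. The next window (chr4:138082109-138332108), with Vwa5b1, Ubxn10 and the first of the secretory phospholipase A2 genes, averaged 6.18% ± 1.76 (SD, n = 6). The third (chr4:138332109-138582108), with the remaining phospholipases and the deubiquitinase gene Otud3, averaged 5.02% ± 1.08 (SD, n = 6). The fourth (chr4:138582109-138832108), with Htr6, Nbl1, a secreted BMP antagonist, and the start of Capzb, averaged 4.73% ± 1.19 (SD, n = 6). The steps between these neighbours, 0.290 to 1.16 points, were smaller than or close to the SDs, so their order is not firm.

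The lowest shares were in the outer 3 windows. At 4.25 to 4.5 Mb (chr4:141082109-141332108), which holds the start of Spen, a transcriptional corepressor, Fblim1, an adaptor at cell adhesions, and Agmat, the mean was 1.34% ± 0.933 (SD, n = 6). At 4.5 to 4.75 Mb (chr4:141332109-141582108), with the apoptosis initiator Casp9 and the pancreatic protease genes Cela2a and Ctrc, it was 1.18% ± 0.505 (SD, n = 6). The outermost window (chr4:141582109-141832108), with Tmem51 and Kazn, had 1.01% ± 0.536 (SD, n = 6). These neighbours did not differ beyond their spread.

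Between these ends the fall was interrupted. Windows 7 to 9, at 2.5 to 3.25 Mb, averaged 2.66%, 1.32% and 1.42% in BC44 and 2.16%, 2.26% and 1.65% in HC11. The window at 3.5 to 3.75 Mb (chr4:140332109-140582108) had 5.34%, 2.42% and 2.21% in BC44 and 1.49%, 2.34% and 3.56% in HC11. It holds Padi3, Padi1 and Padi2, whose products convert arginine to citrulline in proteins, and Sdhb, Atp13a2, Mfap2 and Crocc. Its share was above that of windows 7 to 9 in 5 of 6 libraries, by 0.979 percentage points on average (SD 1.21, n = 6), and HC11 replicate 1 went the other way by -0.675 points. This window and the windows it is set against were picked after their values were seen, and the comparison has no test. The window at 3.25 to 3.5 Mb, which lies between them, averaged 2.19% and was left out of it.

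Over the 16 windows, captured share and distance had a Pearson correlation of -0.894 and a Spearman correlation of -0.874. The windows share libraries and lie side by side, so these describe the profile and carry no p. The number of protein-coding genes per window correlated weakly with captured share (Pearson 0.285) and more closely with what was left after the trend with distance was removed (Pearson 0.593, Spearman 0.564).

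Gene by gene, captured shares were taken over each gene body and 10 kb on either side, within the flank, and neighbouring genes therefore share ends. The 10 protein-coding genes with the highest mean share all lay within 1.5 Mb of the viewpoint or at that limit. Cda led with 11.8%, 7.78% and 6.44% in BC44 and 6.67%, 6.99% and 7.08% in HC11, a mean of 7.80% ± 2.03 (SD, n = 6). Pink1 had 10.4%, 7.66% and 5.09% in BC44 and 7.13%, 7.14% and 9.40% in HC11. Kif17, of which only the part over 1 Mb away was counted, had 12.4%, 4.11% and 3.21% in BC44 and 6.90%, 11.1% and 8.83% in HC11. The libraries of the lines overlapped at all 3 genes. The others were Pla2g2d (7.68%), Fam43b (6.96%), Ubxn10 (6.90%), AB041806 (6.89%), Mul1 (6.76%), Camk2n1, an inhibitor of the kinase CaMKII (6.49%), and Vwa5b1 (6.30%). With SDs over libraries of 1.86 to 4.40 points among these 7, their order does not exceed the spread.

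The 5 genes with the lowest mean share lay over 4.4 Mb away. Efhd2, a calcium-binding actin regulator, averaged 1.05% ± 0.966 (SD, n = 6) and Kazn, a gene of cell junctions, 0.865% ± 0.414 (SD, n = 6), with the lines overlapping at both. Agmat, an agmatinase of polyamine metabolism, averaged 1.05%, Cela2a, a pancreatic elastase, 0.707%, and Casp9 0.345%. At the last 3 nearly all captured ends were from BC44: Agmat had 4, 2 and 1 captured ends, Cela2a 2, 0 and 3 and Casp9 1, 2 and 1 in BC44, whereas in HC11 only Cela2a had 1, in replicate 3.

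**Figure D2:**
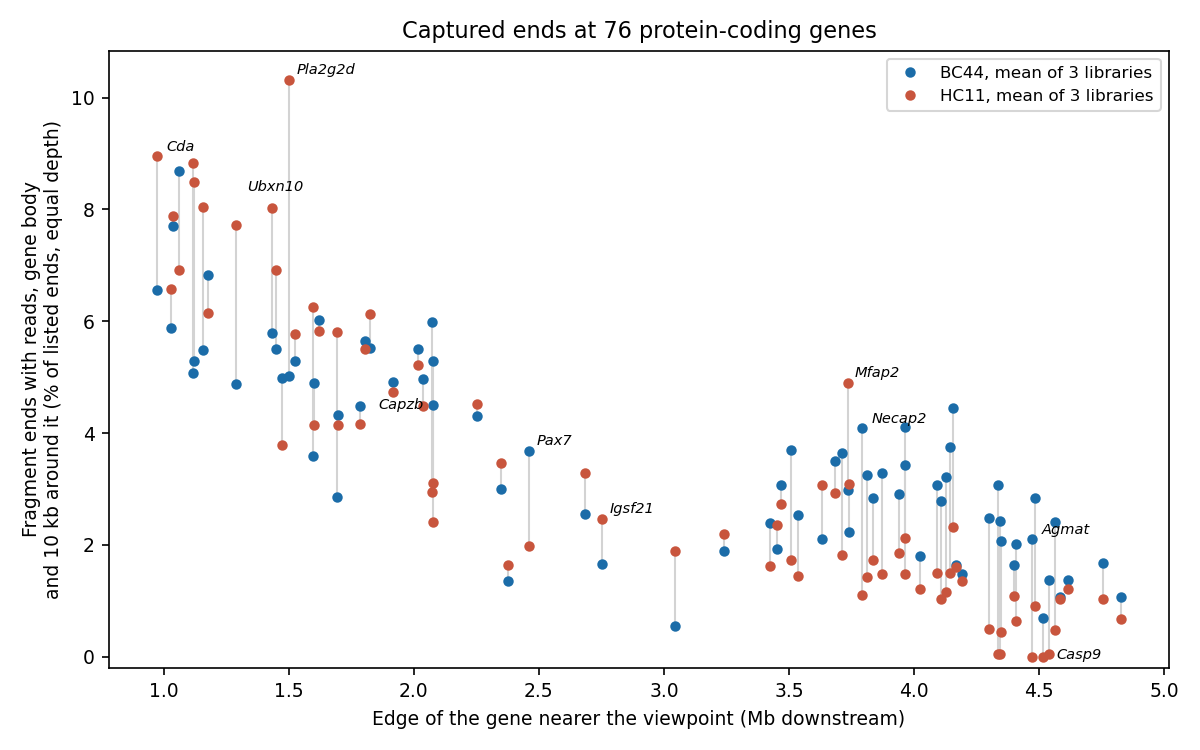
Mean captured share at equal depth (percent of listed ends in the gene body and 10 kb around it) for the 76 protein-coding genes, plotted against the edge of the gene nearer the viewpoint in Mb downstream of it. Blue and red points are means of 3 BC44 and 3 HC11 libraries joined by a line; the genes with the highest shares lie near 1 to 1.5 Mb, and Casp9 and Agmat have an HC11 mean of 0.

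The gene lists lie at different distances, and their captured shares are given beside that of all genes. All 76 protein-coding genes had a median captured share of 2.72%. The secretory phospholipase A2 genes, which encode lipid-cleaving enzymes released from cells, had 5 of 6 members in the flank, near 1.5 Mb, with a median of 5.53% and a range from 4.39% at Pla2g2f to 7.68% at Pla2g2d. The Padi genes had 5 of 5 members, near 3.5 Mb, with a median of 2.59% and a range from 1.99% at Padi1 to 2.90% at Padi4. Of the broadly expressed genes, 20 of 24 lay in the flank and had a median of 2.67%, from 0.345% at Casp9 to 7.80% at Pink1. Of the tissue-restricted genes, 18 of 20 lay in the flank and had a median of 2.72%, from 0.707% at Cela2a to 7.76% at Kif17. The median distances of these lists were 3.70 and 2.57 Mb, against 3.46 Mb for all genes. Both are fixed lists of gene names, and no expression measured in these libraries enters them. By line, the broadly expressed genes had a median of 3.57% in BC44 and 1.78% in HC11, and all genes 3.27% and 2.34%. These medians include the replicate 1 libraries and were not taken without them.

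Capture was compared with the mirror stretch 1 to 5 Mb upstream (10685 listed ends), in the same libraries. The downstream flank was captured less in every library. At equal depth the upstream share was 6.76%, 4.503% and 4.34% in BC44 and 3.55%, 3.500% and 4.66% in HC11, and the downstream share was lower by 2.45, 2.04 and 1.91 points in BC44 and by 0.570, 0.787 and 1.73 points in HC11. The mean difference was -1.58 points, lower downstream in 6 of 6 libraries (two-sided exact sign-flip p = 0.031, the smallest that 6 libraries allow, adjusted p = 0.031 over 2 measures). Reads per listed end were lower downstream too, with log2 ratios of -0.58, -1.11 and -0.96 in BC44 and -0.11, -0.03 and -0.39 in HC11. Their mean was -0.53, below 0 in 6 of 6 libraries (exact sign-flip p = 0.031, adjusted p = 0.031), and in HC11 replicates 1 and 2 the reads of both sides were nearly equal. With 5 libraries the smallest possible exact p is 0.0625, so neither difference can pass with any library left out. Both measures compare the same flanks in the same libraries. They were chosen with earlier results of these data known, so their p-values are no independent evidence.

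In percentage points the gap was widest at 1 to 2 Mb, but not as a ratio. Mean captured shares upstream and downstream were 8.81% and 5.63% at 1 to 2 Mb, 4.32% and 2.72% at 2 to 3 Mb, 2.58% and 2.21% at 3 to 4 Mb, and 2.42% and 1.40% at 4 to 5 Mb. Among the 16 windows of 250 kb, only the Padi window, at 3.5 to 3.75 Mb, had a mean captured share above its upstream mirror. It exceeded the mirror by 0.447 points and in 3 of 6 libraries. In reads per listed end, it and the next window, at 3.75 to 4 Mb, both exceeded their mirrors. The log2 ratios of the means were 0.43 (higher in 3 of 6 libraries) and 0.18 (higher in 4 of 6).

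**Figure D3:**
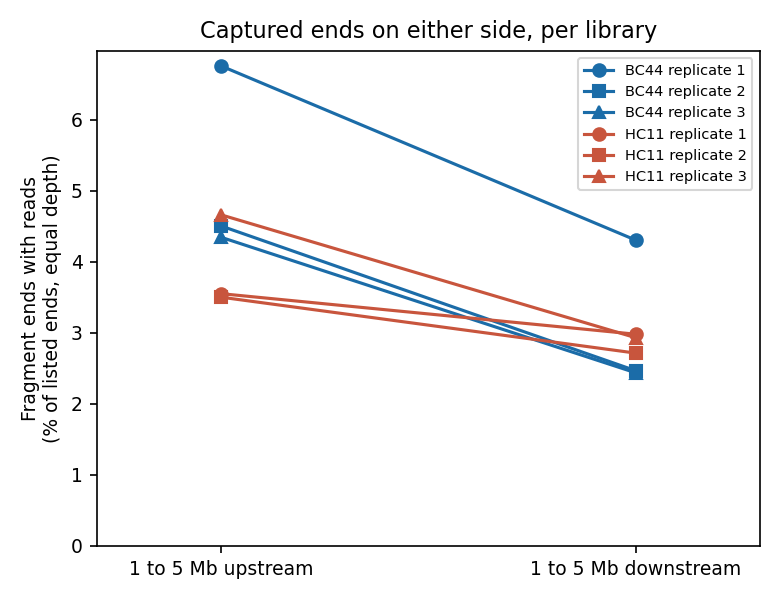
Captured share at equal depth (percent of listed ends) 1 to 5 Mb upstream and 1 to 5 Mb downstream of the viewpoint, with a line for each library. All 6 lines fall, by 0.570 to 2.45 percentage points.

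The lines divided their reads differently between the flanks. Of the reads 1 to 5 Mb away on either side, 40.3%, 31.9% and 34.1% lay downstream in BC44 and 48.2%, 49.6% and 43.4% in HC11. Each HC11 library was above every BC44 library, with means of 35.4% ± 4.37 (SD, n = 3) and 47.1% ± 3.25 (SD, n = 3). The difference of 11.7 points had the smallest p that 3 libraries against 3 allow (exact permutation p = 0.1) and did not pass the adjustment over 5 measures (adjusted p = 0.333). It was 7.92 points in the replicate 1 pair and 13.5 points in replicates 2 and 3. Counted by captured ends, not at equal depth, it was 5.90 points, with overlap (exact permutation p = 0.2). At equal depth the captured share was lower downstream by 1.91 to 2.45 points in BC44 and 0.570 to 1.73 points in HC11. The lines did not overlap in this gap, and their difference in it was not tested. Read shares of both flanks were known when the downstream share of reads was chosen as a measure, so it is no independent evidence.

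Taken apart, the shares of reads outside 2 kb overlapped between the lines downstream and separated upstream. The captured shares at equal depth overlapped on both sides. As a share of reads outside 2 kb, the downstream flank took 5.31%, 3.86% and 4.27% in BC44 and 4.77%, 5.60% and 5.43% in HC11, with overlap. Their means were 4.48% ± 0.747 (SD, n = 3) and 5.26% ± 0.438 (SD, n = 3), a difference of 0.785 points (exact permutation p = 0.2, adjusted p = 0.333) that was -0.540 points in the replicate 1 pair and 1.45 points in replicates 2 and 3. The downstream overlap depended on the denominator. Over reads more than 1 Mb away the difference was 4.66 points, and every HC11 library was above every BC44 library. The exact permutation p was then 0.1, the smallest possible (adjusted p = 0.25). Upstream the shares of reads outside 2 kb were 7.86%, 8.25% and 8.25% in BC44 and 5.12%, 5.68% and 7.07% in HC11, without overlap.

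In 2 stretches of the flank the lines separated, each on 1 of the measures. At 1 to 2 and 3 to 4 Mb they overlapped on both measures. The stretch at 2 to 3 Mb holds Ubr4, a ubiquitin ligase, and Pax7, a transcription factor of muscle stem cells. Its read share (of reads outside 2 kb) was 1.08%, 0.966% and 1.07% in BC44 and 1.12%, 1.43% and 1.42% in HC11. All HC11 libraries were higher. Its captured share overlapped, with 3.58%, 2.33% and 2.60% in BC44 and 2.82%, 2.25% and 2.70% in HC11. The BC44 mean was higher (2.84% against 2.59%), with BC44 replicate 1 the highest library. At 4 to 5 Mb the captured share was 2.72%, 1.28% and 1.35% in BC44 and 1.22%, 1.12% and 0.703% in HC11, all BC44 libraries being higher, while the read share overlapped (0.963%, 0.516% and 0.547% in BC44, 0.675%, 0.394% and 0.226% in HC11). Such separation was not particular to these stretches. At 0.4 to 1 Mb downstream the read share was 2.88%, 2.69% and 2.86% in BC44 and 3.54%, 4.31% and 4.32% in HC11. At 2 to 3 and 4 to 5 Mb upstream every BC44 library had the higher read share. The slope of log2 reads per listed end on log10 distance was -2.31, -2.40 and -3.21 in BC44 and -2.98, -4.69 and -4.99 in HC11. The lines overlapped, and the difference of -1.58 did not exceed the spread between libraries (exact permutation p = 0.2, adjusted p = 0.333). Both the size of this difference and the overlap depended on the pseudocount. With 10 in place of 1 it was -0.58, and every HC11 slope lay below every BC44 slope. The exact permutation p was then 0.1 (adjusted p = 0.25).

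Reads in the 16 windows were compared between the lines with edgeR's quasi-likelihood test, fitted on 436 windows of 250 kb over 1 Mb from the viewpoint, with counts per 1000000 of those reads (CPM) after TMM scaling. Of the 16 windows 0 passed an adjusted p of 0.05, as did 0% of all 436, and 3 of 16 had an unadjusted p under 0.05 against 2.75% of the 436. DESeq2 called 0 of the 16 as well and 2 of the 436, with 5 of the 16 and 39 of the 436 at an unadjusted p under 0.05. HC11 lay above BC44 without overlap in 3 of 16 windows, where 5.96% of all windows did so. BC44 lay above HC11 without overlap in 2 of 16, where 6.88% of all windows did so. HC11 had the higher mean in 12 of 16 windows, with a median log2 fold change (HC11 over BC44) of 0.42 against -0.10 over all windows. Counted by captured ends in place of reads, HC11 was higher in 8 of 16, with a median of 0.04.

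The lowest p belonged to the window at 1.25 to 1.5 Mb with Vwa5b1 and Ubxn10. It had 14924, 14318 and 18760 CPM in BC44 and 26817, 33593 and 25910 CPM in HC11, with every HC11 library higher. The log2 fold change was 0.85 (SE 0.31, edgeR unadjusted p = 0.0104, adjusted p = 0.993). Captured ends overlapped there, with 66, 36 and 35 in BC44 and 56, 47 and 52 in HC11. The next was the window at 3 to 3.25 Mb (chr4:139832109-140082108) with Arhgef10l and Gm9867. It had 4543, 3198 and 4338 CPM in BC44 and 8606, 13777 and 9026 CPM in HC11, without overlap. The log2 fold change was 1.38 (SE 0.56, edgeR unadjusted p = 0.0182, adjusted p = 0.993), and captured ends numbered 17, 10 and 11 in BC44 and 20, 16 and 13 in HC11.

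The third differed in the other direction. The window at 4.25 to 4.5 Mb with Spen, Fblim1 and Agmat had 8275, 4374 and 4374 CPM in BC44 and 1918, 1268 and 1790 CPM in HC11, with every BC44 library higher. The log2 fold change was -1.77 (SE 0.84, edgeR unadjusted p = 0.0407, adjusted p = 0.993). Here captured ends did not overlap either, with 24, 17 and 11 in BC44 and 8, 6 and 4 in HC11. A single end held 25.3% to 53.4% of the window's reads in BC44 and 31.6% to 82.8% in HC11. The window at 3.75 to 4 Mb also had every BC44 library higher, with a log2 fold change of -1.13 (SE 0.58), and the window at 1 to 1.25 Mb every HC11 library higher, with 0.58 (SE 0.31).

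**Figure D4:**
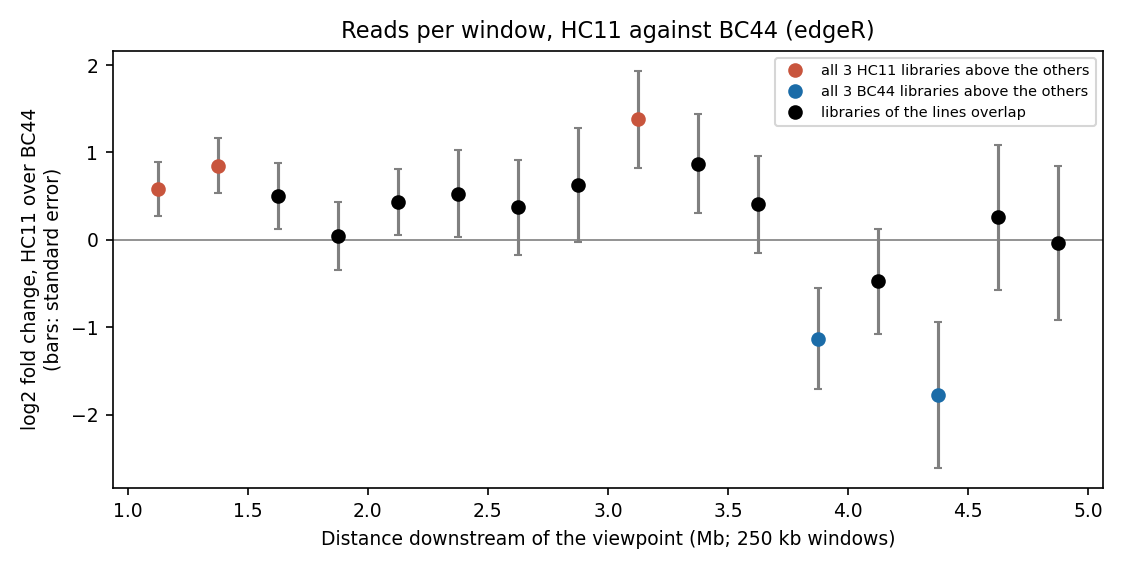
The log2 fold change of reads, HC11 over BC44, for each 250 kb window against its distance downstream of the viewpoint in Mb, with bars for the standard error from edgeR. Red marks windows with all HC11 libraries above (3 of 16), blue those with all BC44 libraries above (2 of 16) and black those that overlap; no window passed an adjusted p of 0.05.

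Of the 76 protein-coding genes, 71 had enough reads to be tested, among 676 genes over 1 Mb from the viewpoint. Of the 71, 0 passed an adjusted p of 0.05 in edgeR, as did 0% of the 676, and 5 had an unadjusted p under 0.05 against 4.44% of all. DESeq2 called 0 of the 71 too and 1 of the 676, with 6 of the 71 and 41 of the 676 at an unadjusted p under 0.05. HC11 lay above without overlap at 3 of 71 genes (Kif17, Ubxn10 and Vwa5b1), where 2.66% of all genes did so. BC44 lay above without overlap at 6 of 71 (C230096C10Rik, Rcc2, Necap2, D4Ertd22e, which is now Szrd1, Fblim1 and Agmat), where 7.99% of all genes did so. Neither share stands far from the background.

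The gene with the lowest p was Necap2, which encodes a protein of clathrin-coated vesicles and lies at 3.79 Mb. It had 414, 1374 and 896 reads in BC44 and 0, 0 and 78 reads in HC11, on 5, 3 and 3 captured ends in BC44 and on 3 in HC11 replicate 3. The log2 fold change was -4.70 (SE 1.62, edgeR unadjusted p = 0.00375, adjusted p = 0.877). The log2 fold change was -1.80 over the gene body without the 10 kb on either side (edgeR unadjusted p = 0.577) and -1.43 for captured ends in place of reads (edgeR unadjusted p = 0.111). Necap2 passed without HC11 replicate 3 (edgeR adjusted p = 0.00643), but the HC11 libraries that remain then have 0 reads there by that choice. Fblim1 had 810, 824 and 118 reads in BC44 and 1, 6 and 0 in HC11. Its log2 fold change was -5.30 (SE 2.37, edgeR unadjusted p = 0.0255, adjusted p = 0.877). The end that held the most reads of the flank in BC44 replicate 1, 665 of them, lay in Fblim1 and had none in the other libraries.

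Agmat and Casp9 had no read in HC11. Agmat had 124, 42 and 397 reads in BC44, on 7 captured ends summed over the libraries (edgeR unadjusted p = 0.0227, adjusted p = 0.877). Casp9, which had too few reads to be tested, had 3, 109 and 250 reads in BC44, on 4 captured ends. No fold is given, since a captured end holds many amplified reads and so few ends set no bound on it. Between Fblim1 and Agmat, Tmem82 and Slc25a34 had 1 read each in HC11 over the 3 libraries, and 978, 250 and 3 reads and 313, 251 and 3 reads in BC44. Counted with 10 kb on either side, these neighbours can share ends with each other and with Fblim1, so their reads are not separate observations.

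Among the gene lists, the phospholipase genes had a median log2 fold change of 0.92 over 5 tested members, 4 of them higher in HC11, and 0 passed. The Padi genes had 0.35, with 4 of 5 higher in HC11, and 0 passed. The 19 tested broadly expressed genes had a median of -0.47, with 7 higher in HC11, and the 16 tested tissue-restricted genes 0.07, with 8 higher in HC11, and 0 passed in either list. Over all 71 genes the median was -0.02, with 35 higher in HC11. These medians depend on scaling: without TMM the median over all 676 genes rose from -0.21 to -0.10, and that of the 71 genes from -0.02 to 0.16. With replicates 2 and 3 only, the median of the 61 genes then tested in the flank was 0.23, with 39 higher in HC11. The signs of the 4 list medians were the same with TMM, without it and with DESeq2.

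The libraries overlapped little in which ends they captured. Reads appeared at 1935 of the 10761 ends (18.0%) in at least 1 library, of which 1602 were seen in 1 library, 291 in 2, 37 in 3 and 5 in 4. Of the 42 ends seen in 3 or more libraries, 36 (85.7%) lay in the inner 1.5 Mb of the flank, which held 37.3% of listed and 58.5% of captured ends. Both lines had reads at 224 ends. The ends shared by a pair of libraries made up 5.33% to 10.3% of either library's captured ends within a line and 4.38% to 13.5% between lines. The medians were 7.01% within and 7.57% between lines. The highest overlap, 52 ends, was between the replicate 1 libraries of the lines, 8.93% of those of BC44 and 13.5% of those of HC11. At least 2 BC44 libraries and no HC11 library captured 56 ends, and at least 2 HC11 libraries and no BC44 library captured 53. The same counts were not taken over all listed ends of the chromosome, so these only describe the flank.

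Single ends carried much of the signal. The 10 highest ends held 11.3%, 21.4% and 20.8% of the flank's reads in BC44 and 17.4%, 21.4% and 18.9% in HC11. The means of 17.8% ± 5.62 (SD, n = 3) and 19.2% ± 2.04 (SD, n = 3) differed by 1.39 points (exact permutation p = 0.8, adjusted p = 1), and by -1.86 points without BC44 replicate 1. The highest end of each library was a different end. It lay in Fblim1 in BC44 replicate 1, in an intron of Igsf21 in BC44 replicate 2 (950 reads) and in an intron of Iffo2 in BC44 replicate 3 (1658 reads). In HC11 it lay in an intron of Ubxn10 in replicate 1 (1171 reads), in an intron of Ubr4 in replicate 2 (303 reads) and 6.6 kb from Ubr4 in replicate 3 (1044 reads). The Igsf21, Fblim1 and Ubr4 intron ends had reads in no other library.

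Capture also varied with the fragment itself. Ends of fragments of 200 bp or less had captured shares at equal depth of 1.62%, 1.47% and 1.63% in BC44 and 1.28%, 1.39% and 1.45% in HC11, the lowest of the 4 length classes in every library. Ends of fragments over 1000 bp had 7.98%, 3.23% and 2.45% in BC44 and 5.24%, 3.33% and 3.53% in HC11. The gain with length was largest in the replicate 1 libraries. Above 200 bp BC44 replicate 3 showed no gain, with 2.69%, 2.55% and 2.45% in the 3 longer classes. Within windows, fragments over 500 bp exceeded shorter ones by 3.40, 0.382 and 0.130 points in BC44 and by 2.198, 0.841 and 0.978 points in HC11. Of 393 ends over 500 bp from their NlaIII site, 0 were captured in any library but BC44 replicate 1 (6 ends), which allows a share of up to 0.763% in each of the other 5.

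**Figure D5:**
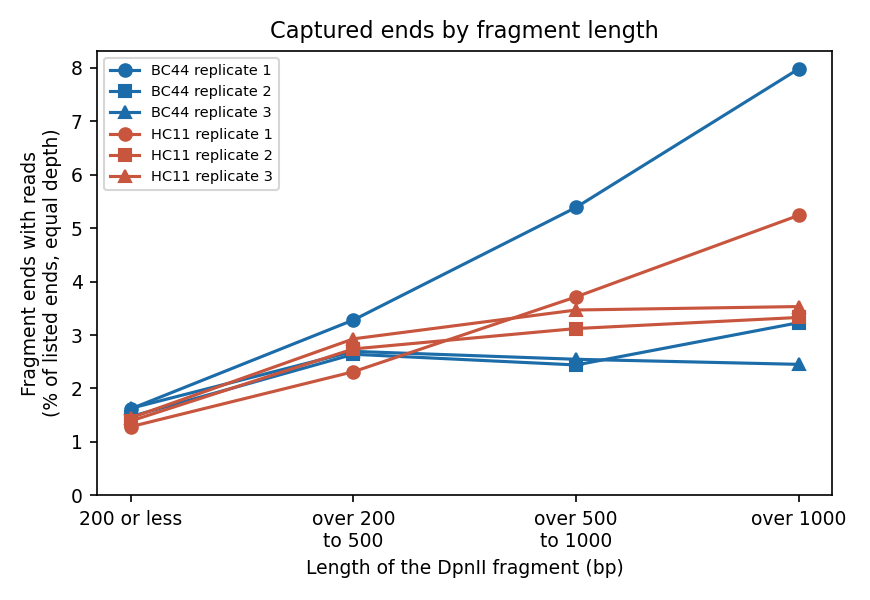
Captured share at equal depth (percent of listed ends) against the length class of the DpnII fragment in bp, with a line for each library. Shares are lowest, 1.28% to 1.63%, in fragments of 200 bp or less, and the rise with length is steepest in replicate 1 of both lines, to 7.98% and 5.24% over 1000 bp. Above 200 bp BC44 replicate 3 shows no rise.

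Ends near promoters were captured slightly more often. The 1759 ends within 5 kb of a protein-coding start exceeded the others of the same windows by 0.535, 0.213 and 0.665 points in BC44 and by 0.1004, 0.449 and 0.867 points in HC11. The difference was above 0 in 6 of 6 libraries, with a mean of 0.472 points (SD 0.284, n = 6). Comparing within windows holds the gene content of a window fixed, though windows with more such ends weigh more. Fragment length was not separated in this difference. Ends in gene bodies exceeded those outside within windows in 5 of 6 libraries, by 0.318 points on average (SD 0.295, n = 6), and in 3 of 6 libraries when windows were not held fixed.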

How the data were processed

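4C-seq reads of 6 libraries were deposited by the authors as raw read counts per DpnII fragment end of chromosome 4. Per the series' design text, reads were mapped to mm9 by the de Wit laboratory's 4C pipeline, with its settings left at the defaults; the aligner is not given in the sources used here. Per the labels, a single read of each pair was used. Samples were grouped by the line in their titles. Members, lists and tests were chosen with earlier results of these data known.

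Ends were assigned to the flank by position and to genes with GENCODE M1. RPM were taken over reads outside 2 kb of the viewpoint end. Captured shares at equal depth are hypergeometric expectations at 93823 reads. The slope used a pseudocount of 1. Lines were compared with two-sided exact permutation tests over the 20 relabellings, adjusted (Benjamini-Hochberg) over 5 measures, and the flanks with exact sign-flip tests over 6 libraries, adjusted over 2. Windows of 250 kb and genes with 10 kb on either side, all over 1 Mb away and with at least 10 reads in at least 3 libraries, were tested with edgeR 4.0.16 (quasi-likelihood, TMM, line as the only term, adjusted p under 0.05) in R 4.3.3, with DESeq2 1.42.0 as an alternative. The scripts were tested on simulated data. Named windows are the 3 of lowest p, the 4 of highest and the 3 of lowest captured share. Named genes are the 10 of highest and the 5 of lowest captured share, the 3 of lowest p and the extremes of 4 lists. Other genes and windows are named outside these rules, Tmem82, Slc25a34 and the Padi window among them.

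Total counts ranged from 96690 to 1755373 reads, and 5250 to 45889 reads lay in the flank. Alternatives left out libraries, the replicate 1 pair, the highest ends, TMM, the filter and the 10 kb, and used other windows, depths and captured ends. Same-numbered libraries had deviation correlations of 0.15, 0.03 and 0.03 over 436 windows, and the others -0.14 to 0.09. Each BC44 library shared more captured flank ends with the same-numbered HC11 library (52, 23 and 32) than with the other HC11 libraries. The labels name no shared batch, so the numbers were not taken to pair the libraries. Ends of chromosome 4 not listed were not used here.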

Additional observations from a re-analysis of the deposited data

How the results depend on the processing

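The alternatives did not change that no window of the flank and, with the exception named below, no gene of it passed the edgeR threshold. The captured share difference between the lines turned to 0.423 percentage points without BC44 replicate 1 and to 0.371 with replicates 2 and 3 only, and the difference in the share of the 10 highest ends to -1.86 and -0.939 points; the cause was not tested. Leaving out 1 library in turn gave captured share differences of -0.511 to 0.423 points and differences for the 10 highest ends of -1.86 to 3.17 points. The downstream minus upstream captured share was -1.61 points with replicates 2 and 3 only and -1.78 to -1.41 with 1 library left out. The log2 ratio of reads was -0.62 and -0.63 to -0.42, and with so few libraries neither test can pass (smallest exact p 0.125 with 4 libraries and 0.0625 with 5). Without 1 library the count of flank genes called by edgeR was 0 to 1, the gene being Necap2 without HC11 replicate 3. Other leave-one-out ranges were 0.475 to 1.20 points for the read share, -2.20 to -1.20 for the slope (-0.58 with a pseudocount of 10) and 9.89 to 14.1 points for the downstream share of both flanks, with the direction kept. With the replicate block, edgeR called 0 windows (smallest adjusted p in the flank 0.174) and 0 genes (0.644). The block was run although the labels do not say that the numbers pair the libraries. Outside the flank, DESeq2 called 2 windows and 1 gene. The far windows rest on few captured ends: at 4.25 to 4.5 Mb HC11 had 4 to 8 captured ends per library.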
